A study of Mus musculus with 8 samples.

Results

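Epidermis that received the glucocorticoid fluocinolone acetonide (FA) before the phorbol ester TPA was compared with epidermis that received vehicle, to describe what was left of the TPA response under FA and what appeared with FA+TPA. The libraries were chosen by their treatment labels and were 6 of the 8 in the series, 2 with FA+TPA and 4 with vehicle. The other 2 libraries had TPA alone and served to define the TPA effects. RNA came from scraped back-skin epidermis of female mice in 1 F1 background of C57Bl and 129. The FA+TPA libraries were 1 REDD1 knockout and 1 wild type, shaved and given FA (2 ug) 1 h before TPA (4 ug), both in acetone. The TPA libraries were 1 knockout and 1 wild type given TPA (4 ug) without FA. The vehicle libraries were 2 knockout and 2 wild type given acetone (200 ul). Skin was taken 24 h after TPA. No group analysed here received FA without TPA, so an effect of FA by itself and an effect that needs both agents cannot be told apart. The labels do not say how many animals stand behind a library, so p-values reflect only how these libraries vary, and that variation may be technical.

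TPA activates protein kinase C and, through MAP kinases, the AP-1 transcription factors, and in mouse skin it is known for inflammation, keratinocyte proliferation and the switch to keratins of wounded epidermis. Glucocorticoids act through the glucocorticoid receptor, which binds DNA itself and also restrains AP-1 and NF-kB, and FA is known to block the tumour-promoting action of TPA on skin. REDD1, encoded by Ddit4, inhibits mTORC1 signalling and is itself induced by glucocorticoids.

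Expression levels are CPM, counts relative to library totals scaled by TMM, and changes are log2 fold changes ± standard error from a fit with genotype and treatment as additive terms over all 8 libraries. A gene was called when the edgeR quasi-likelihood p adjusted over all genes tested was below 0.05. Library totals ranged from 16874233 to 22560098 counts, and the upper limit behind a count of 0, taken as 3 counts, came to between 0.1345 and 0.1906 CPM on the same scale. This limit and the intervals given below cover counting error only. Gm26917, a noncoding transcript, made up 18.01% and 16.77% of counts with FA+TPA, 18.97% and 24.21% with TPA and 8.34% to 13.83% with vehicle. Keratinocyte transcripts were abundant in every library: Krt14 was at 5564 CPM in the knockout and 6255 CPM in the wild-type FA+TPA library, against 2144 to 2781 CPM with vehicle. Ddit4, the targeted gene, was at 7.25 CPM in the knockout and 90.3 CPM in the wild-type FA+TPA library, against 18.8 and 18.6 CPM in knockout and 128 and 117 CPM in wild-type vehicle libraries. With FA+TPA it changed by -0.82 ± 0.21 (edgeR adjusted p = 0.0143). Leaving out the knockout FA+TPA library took it past the threshold (edgeR adjusted p = 0.18).

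Letters upstream of 4 genes are printed as examples. Sprr1b and Sprr2h stand for a TPA effect that stayed, and Trim63 and Lce1l for rises that came with FA+TPA. The sequences are from RefSeq on GRCm38.p6, given 5′ to 3′ on the gene's strand. They end just before the RefSeq start, except that of Sprr1b, whose last 38 bases before that start lie inside the annotated gene and are not printed. They lie at chr3:92438818-92439029 (minus strand) for Sprr1b, chr3:92385435-92385684 (plus strand) for Sprr2h, chr4:134314870-134315119 (plus strand) for Trim63 and chr3:92851287-92851536 (minus strand) for Lce1l. Capitals mark the AP-1 letters TGANTCA in the first pair and the letters ACANNNTGT, a core of glucocorticoid receptor sites, in the second pair.
Sprr1b: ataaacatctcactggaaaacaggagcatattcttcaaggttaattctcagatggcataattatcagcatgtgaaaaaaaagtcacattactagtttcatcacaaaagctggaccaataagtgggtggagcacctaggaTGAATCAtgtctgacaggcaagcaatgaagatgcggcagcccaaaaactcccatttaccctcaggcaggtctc
Sprr2h: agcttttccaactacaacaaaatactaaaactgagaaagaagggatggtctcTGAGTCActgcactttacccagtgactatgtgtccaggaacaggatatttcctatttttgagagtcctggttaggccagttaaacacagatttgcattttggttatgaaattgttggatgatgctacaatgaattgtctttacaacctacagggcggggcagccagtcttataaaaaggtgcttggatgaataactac
Trim63: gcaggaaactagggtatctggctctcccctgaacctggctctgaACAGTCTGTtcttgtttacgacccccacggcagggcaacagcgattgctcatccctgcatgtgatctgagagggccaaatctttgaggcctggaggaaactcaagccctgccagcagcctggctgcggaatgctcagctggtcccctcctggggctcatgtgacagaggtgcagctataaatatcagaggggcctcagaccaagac
Lce1l: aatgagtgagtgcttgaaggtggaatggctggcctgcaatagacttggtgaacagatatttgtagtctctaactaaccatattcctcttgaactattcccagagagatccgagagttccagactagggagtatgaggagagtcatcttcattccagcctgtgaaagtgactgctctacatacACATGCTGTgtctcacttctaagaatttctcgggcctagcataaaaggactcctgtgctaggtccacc
The match began 111 bases before the RefSeq start in Sprr1b, 198 in Sprr2h, 206 in Trim63 and 68 in Lce1l. Both letter strings read the same on either strand, and neither contains the other. Over the 250 bases before the start, TGANTCA stood in 6.3% of the 12119 tested genes with a RefSeq window. It stood in 7.65% of the 1987 rises and 6.61% of the 1649 falls in which a TPA effect remained, and in 13% of the 230 rises and 8.05% of the 87 falls that came with the combination. ACANNNTGT stood in 4.82% of all tested genes with a window, and in 4.38%, 5.03%, 6.96% and 5.75% of those 4 classes in the same order. A match describes letters and was not taken as a bound site. These 4 genes were chosen for printing after their values were seen, and the second pair from rises already known to hold its letters. Each window was marked only for the string of its pair. The printed matches therefore do not link either string to a class.

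A broad response was present in FA+TPA epidermis. Of 19251 genes tested, 6076 were called in FA+TPA against vehicle, which is 31.6%, with 3347 higher (17.4%) and 2729 lower (14.2%). TPA against vehicle called 8852 (46%), with 4472 higher (23.2%) and 4380 lower (22.8%), and FA+TPA against TPA called 1929 (10%), with 1099 higher (5.71%) and 830 lower (4.31%). These 3 comparisons share libraries, so their calls are set side by side and not tested against each other. At least 2-fold changes in FA+TPA against vehicle numbered 1989 (10.3%), 1170 higher and 819 lower. With scaling by library size only, the median of all genes moved to -0.23, against -0.01 with TMM scaling, and the 6935 calls became 1953 higher and 4982 lower. Directions below are relative to TMM scaling. Counts of list members below stand beside the shares of all genes tested given here for each comparison.

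A TPA effect was taken to remain where TPA and FA+TPA were both called in the same direction against vehicle. That held for 5019 genes (26.1% of those tested), 2716 higher and 2303 lower. They were 56.7% of the TPA effects, 60.7% of the TPA rises and 52.6% of the TPA falls, and 82.6% of the FA+TPA calls. Among the 3551 TPA effects of at least 2-fold, 2271 remained (64%). For 4212 of the 5019 genes the direct test of FA+TPA against TPA was not called, for 711 the change was smaller with FA+TPA, and for 96 it was larger. A further 3748 TPA effects were not called in FA+TPA against vehicle, and for 736 of these the direct test placed FA+TPA apart from TPA on the side of vehicle. The last 85 were called in the opposite direction there. The count of remaining effects was 2677 without the knockout and 2408 without the wild-type FA+TPA library, and 2620 and 2387 of those genes were among the 5019.

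**Figure D1:**
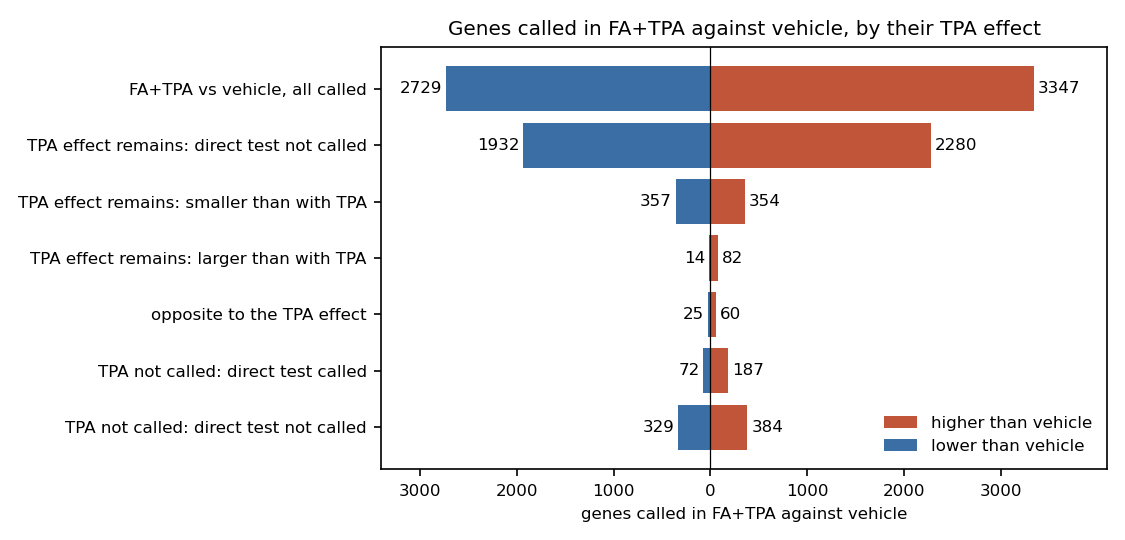
Genes called in FA+TPA against vehicle (horizontal axis, number of genes), higher to the right and lower to the left, divided by whether TPA against vehicle and FA+TPA against TPA (the direct test) were called. Of the 6076 calls, 2280 rises and 1932 falls were TPA effects that remained without a called difference between FA+TPA and TPA; with library size only, the balance of all calls turns to 1953 higher and 4982 lower.

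Structural proteins of activated epidermis were far above vehicle under FA. Sprr1b (ENSMUSG00000048455; mm10 chromosome 3, 92436809 to 92438789, minus strand, protein coding), a cross-linking protein of the cornified envelope, was at 187 CPM in knockout and 253 CPM in wild-type FA+TPA libraries, against 1.78, 2.81, 1.24 and 1.40 CPM with vehicle. TPA alone gave 142 and 225 CPM. The FA+TPA libraries lay above all vehicle libraries and close to the TPA libraries. The change was 6.87 ± 0.24 (edgeR adjusted p = 1.02e-07), and FA+TPA and TPA differed by 0.27 ± 0.22 (edgeR adjusted p = 0.53). Its relative Sprr2h rose by 6.21 ± 0.20, to 97.3 and 122 CPM, against 1.24 to 1.77 CPM with vehicle. Krt6b, a keratin of wounded epidermis, was at 647 CPM in knockout and 533 CPM in wild-type FA+TPA libraries, against 7.5, 7.63, 3.11 and 5.79 CPM with vehicle. It had reached 2458 and 3613 CPM with TPA, so that it rose by 6.61 ± 0.26 with FA+TPA and still differed from TPA by -2.39 ± 0.28 (edgeR adjusted p = 0.000515). Krt16, its pairing partner, rose by 6.05 ± 0.25 with FA+TPA and by 7.5 ± 0.26 with TPA.

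Of 16 tested stress keratins and small proline-rich proteins, 14 rose with FA+TPA and none fell, and their median was 5.28, or 5.07 with the one gene at 0 in all vehicle libraries, Sprr2j-ps, set to its lower bound. With TPA all 16 rose, with a median of 6.56. The direct test called 9 lower with FA+TPA than with TPA and none higher. The list was uneven under FA. Sprr2d, Sprr2g, Sprr2h and Sprr1b did not pass the direct test, whereas Sprr2a3 was at 4.41 and 4.71 CPM with FA+TPA, against 46.5 and 121 CPM with TPA and 0.569 to 1.32 CPM with vehicle. Near-identical members of this family can share reads, so their separate values are uncertain.

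The late cornified envelope genes divided by family. All 6 tested Lce3 genes, which are known from barrier repair, rose with FA+TPA and with TPA, with changes between 4.10 and 6.97 with FA+TPA and between 4.09 and 8.33 with TPA. Lce3d was at 16.1 and 13.2 CPM with FA+TPA, 15.6 and 30.8 CPM with TPA, and 0.141, 0.0908, 0.0565 and 0.155 CPM with vehicle. All 4 vehicle libraries were at or under 3 counts. Lce3d rose by 6.97 ± 0.36 (edgeR adjusted p = 9.21e-07) and did not pass the direct test against TPA (-0.59 ± 0.25). Of 14 tested Lce1 genes, which belong to normal late differentiation, 13 rose with FA+TPA and none fell, with a median of 1.30. With TPA 8 of the 14 rose and 3 fell, with a median of 0.53, and 12 were higher with FA+TPA than with TPA. Lce1h was at 119 and 195 CPM with FA+TPA and at 21.5 to 35.1 CPM with vehicle, and rose by 2.40 ± 0.11 with FA+TPA and 1.62 ± 0.11 with TPA.

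**Figure D2:**
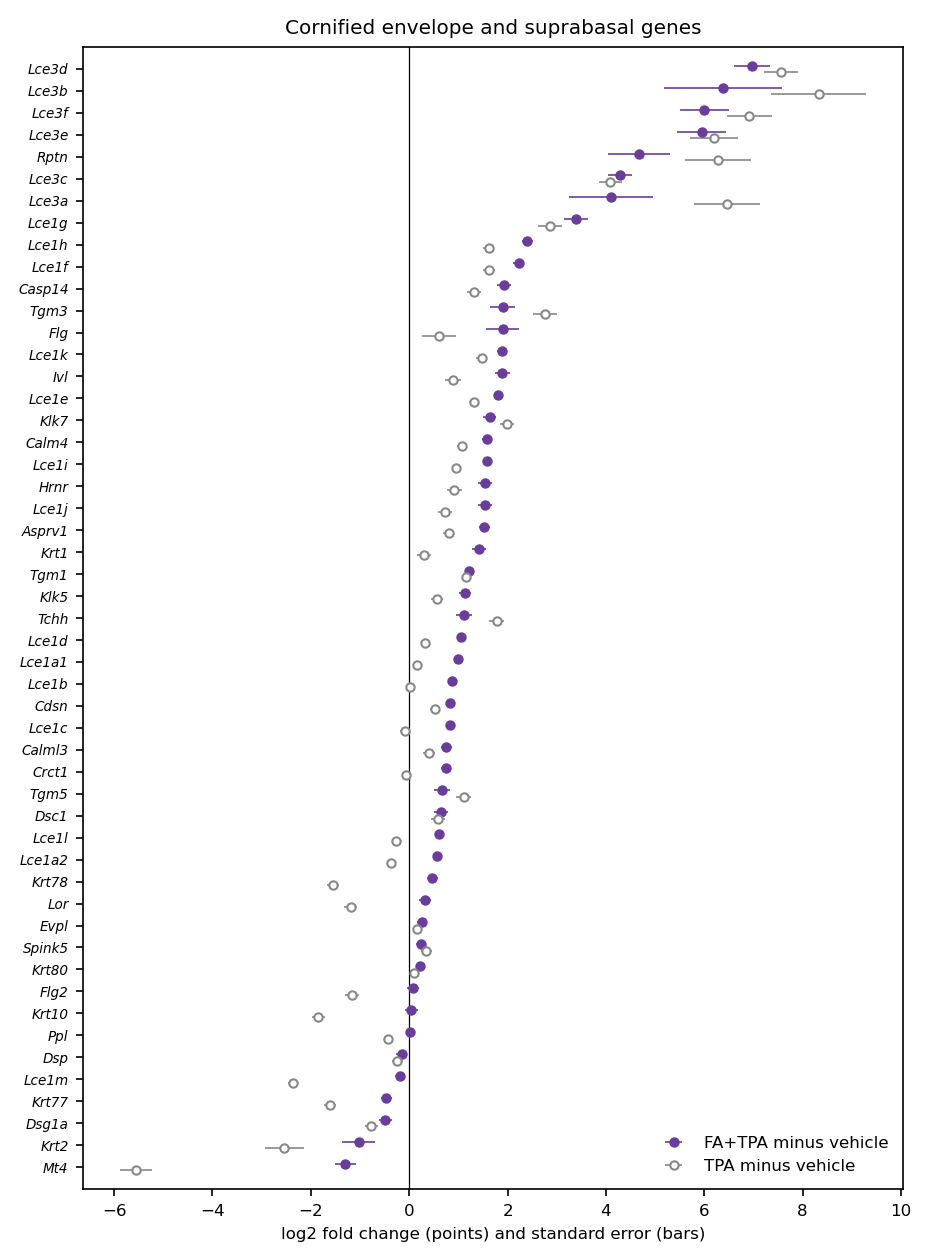
Log2 fold change (horizontal axis, points, with bars of 1 standard error) of 51 cornified envelope and suprabasal genes in FA+TPA minus vehicle (filled) and TPA minus vehicle (open), which share the 4 vehicle libraries. The 6 Lce3 genes lie among the highest in both, and genes such as Krt10, Lor and Mt4 lie lower with TPA than with FA+TPA.

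Over the whole list of cornified envelope and suprabasal genes, 38 of 51 rose with FA+TPA and 4 fell, with a median of 1.12, against 17.4% higher, 14.2% lower and a median of -0.01 over all genes tested. With TPA 30 rose and 12 fell, with a median of 0.59. Part of the TPA effect was not called under FA. Krt10, the main suprabasal keratin, was at 8680 and 9695 CPM with FA+TPA, 1903 and 3188 CPM with TPA and 7910 to 9763 CPM with vehicle, so that FA+TPA lay within the vehicle range (0.04) while TPA was 1.84 lower on the log2 scale than vehicle. Lor, which encodes loricrin, was at 1413 and 1796 CPM with FA+TPA, 438 and 718 CPM with TPA and 1038 to 1725 CPM with vehicle, and did not pass against vehicle (0.32 ± 0.12). Filaggrin, Flg, rose by 1.90 with FA+TPA and its family member Hrnr by 1.54. The list had 34 rises and 1 fall without the knockout and 36 rises and 1 fall without the wild-type FA+TPA library. The 4 members that fell were Mt4, Krt2, Dsg1a and Krt77, and Mt4, a metallothionein of differentiating epithelia, was at 25.5 and 15.3 CPM with FA+TPA, 0.898 and 1.29 CPM with TPA and 41.8 to 62.6 CPM with vehicle.

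Barrier lipid genes rose with FA+TPA in 19 of 23 cases and fell in none, with a median of 0.73. With TPA 13 rose and 3 fell, with a median of 0.41. Degs2, an enzyme of phytoceramide synthesis, was at 19.9 and 22.3 CPM with FA+TPA, 32.3 and 39.1 CPM with TPA, and 0.517 to 1.91 CPM with vehicle, and rose by 4.22 ± 0.29. Alox12b and Aloxe3, the lipoxygenases that process acylceramides, rose by 0.81 and 0.64 with FA+TPA and were also called higher than with TPA. With TPA Alox12b did not pass (0.02) and Aloxe3 fell by 0.47. The acylceramide enzyme Pnpla1 and the lipase Lipk rose by 1.01 ± 0.08 and 1.42 ± 0.11.

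**Figure D3:**
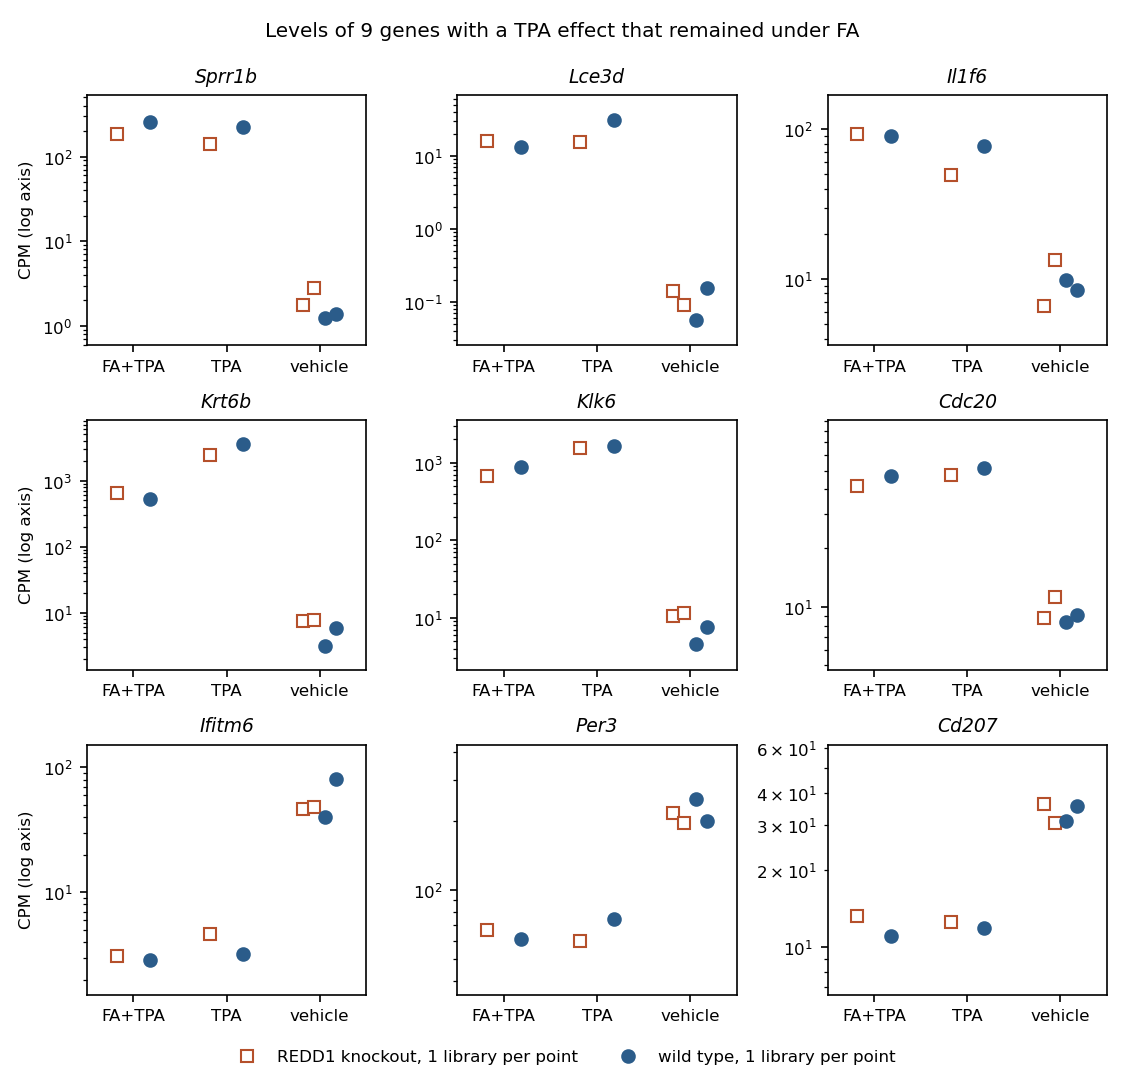
Levels in CPM (vertical axes, log scale) of 9 genes whose TPA effect remained under FA, 1 point per library, with FA+TPA left, TPA in the middle and vehicle right. In all 9 panels both FA+TPA libraries lie outside the vehicle range, and Krt6b, Klk6 and Cdc20 lie between TPA and vehicle, Cdc20 close to TPA.

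Secreted proteases and growth factors rose less evenly. Of 21 proteases and ligands of the EGF receptor, 16 rose with FA+TPA and 2 fell, with a median of 1.96, while 18 rose and 1 fell with TPA, with a median of 2.87. Klk6, a serine protease, was at 676 CPM in knockout and 885 CPM in wild-type FA+TPA libraries, against 10.5, 11.6, 4.58 and 7.71 CPM with vehicle, and rose by 6.52 ± 0.25. TPA gave 1559 and 1649 CPM, and the direct test called FA+TPA lower (-1.03 ± 0.26, edgeR adjusted p = 0.031). Klk10 and Klk9 rose by 2.97 ± 0.12 and 2.28 ± 0.11, against 4.35 ± 0.13 and 2.48 ± 0.11 with TPA. The direct test called Klk10 lower with FA+TPA (-1.38 ± 0.14) and did not call Klk9 (-0.20 ± 0.13). The collagenase Mmp13 was at 1.45 and 0.254 CPM with FA+TPA, 29.6 and 28.7 CPM with TPA and 0.0469 to 0.227 CPM with vehicle. It rose by 3.03 ± 0.68 with FA+TPA and by 8.15 ± 0.39 with TPA, and the direct difference was -5.13 ± 0.39. With FA+TPA only the knockout library lay well above vehicle, and the wild-type library was near its limit of 0.1906 CPM. Epgn and Ereg, ligands of the EGF receptor, rose by 3.18 and 1.73 with FA+TPA, and Ereg was called higher than with TPA. The ligand Btc fell by 0.87 with FA+TPA and by 3.12 with TPA.

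Inflammatory genes split by kind. Of 22 tested cytokines and chemokines, 9 rose with FA+TPA and 3 fell, with a median of 0.77 (0.71 with genes at 0 in every vehicle library at their bound or left out), and the falls numbered 1 without the knockout and 1 without the wild-type FA+TPA library. With TPA 16 rose and 1 fell, with a median of 2.07, and the direct test called 11 lower and 1 higher with FA+TPA. The 3 interleukin-36 genes kept their rise. Il1f6 was at 92.3 and 90.2 CPM with FA+TPA, 49.5 and 76.9 CPM with TPA and 6.61, 13.4, 9.78 and 8.48 CPM with vehicle, and rose by 3.25 ± 0.22. Il1f8 rose by 2.26 ± 0.15 and Il1f9 by 1.73 ± 0.11, and their receptor antagonist Il1f5 by 1.34 ± 0.13. None of these 4 passed the direct test. Il24, a cytokine of the interleukin-20 group, was listed at 0 in both FA+TPA and all 4 vehicle libraries and at 2.20 and 2.59 CPM with TPA. Ccl20, the ligand of Ccr6, was at 6.94 and 9.16 CPM with FA+TPA, 2.15 and 2.47 CPM with TPA and 0.234 to 1.34 CPM with vehicle.

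Antimicrobial and alarmin genes rose in 9 of 13 cases with FA+TPA and fell in none, with a median of 3.13, and 11 rose with TPA, with a median of 4.14. The beta-defensin Defb14 was at 28.8 and 30.0 CPM with FA+TPA, 22.6 and 29.3 CPM with TPA and 2.60 to 4.22 CPM with vehicle, and rose by 3.13 ± 0.18. The protease inhibitor Slpi rose by 5.31 ± 0.44. Saa3, an acute phase protein, was at 7.79 and 4.39 CPM with FA+TPA and 2.69 and 1.91 CPM with TPA, and the 4 vehicle libraries held 1 count in all. The ratio of FA+TPA to vehicle counts was 493 with an exact 95% counting interval from 87.5 to 19580. S100a8 and S100a9, which neutrophils also express, rose by 4.76 and 4.51. Cxcr2, a chemokine receptor of neutrophils, was at 14.8 and 11.4 CPM with FA+TPA, 36.3 and 34.9 CPM with TPA and 0.938 to 2.38 CPM with vehicle. The 12 neutrophil markers, of which S100a8 and S100a9 were the most abundant, summed to 200 and 110 CPM with FA+TPA, 403 and 932 CPM with TPA and 4.35 to 14.98 CPM with vehicle, and 6 of the 7 tested rose with FA+TPA. The defining neutrophil gene Ly6g was listed at 0 in both FA+TPA libraries and Elane in all 8 libraries, and the part of neutrophils in the antimicrobial rises was not tested.

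Proliferation and growth genes kept their rise. Of 38 cell cycle genes, 29 rose with FA+TPA and none fell, with a median of 1.61, against 33 and a median of 1.81 with TPA. Cdc20, an activator of the anaphase-promoting complex, was at 41.8 and 46.8 CPM with FA+TPA, 47.7 and 51.8 CPM with TPA and 8.77, 11.2, 8.31 and 9.10 CPM with vehicle, a rise of 2.24 ± 0.12 (edgeR adjusted p = 1.27e-06). The mitotic kinase Plk1 and the cyclin Ccna2 rose by 2.33 ± 0.17 and 1.80 ± 0.13. Of 26 ribosome biogenesis genes, 20 rose and none fell, with a median of 0.62, and none passed the direct test against TPA. Rrp12, Nop56 and Nop2 rose by 1.23, 0.95 and 0.85. Of 16 glycolysis genes 16 rose, with a median change of 1.09, against 1.55 with TPA, and 6 were lower with FA+TPA than with TPA. Pkm, the pyruvate kinase, was at 354 and 412 CPM with FA+TPA, 466 and 572 CPM with TPA and 131 to 145 CPM with vehicle. ATF4 targets, of the amino acid response, rose in 16 of 19 cases, with Slc7a5 at 1.36 ± 0.09, and this count was 13 without the knockout and 10 without the wild-type FA+TPA library.

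Mitochondrial and NF-kB genes had fewer calls under FA, as did all genes tested (31.6% called with FA+TPA and 46% with TPA). Nuclear oxidative phosphorylation genes rose in 24 of 26 cases with TPA, with a median of 0.49, and in 9 with FA+TPA, with a median of 0.23. The count of 9 was 5 without the knockout and 5 without the wild-type FA+TPA library. Atp5b, a subunit of ATP synthase, was at 547 and 526 CPM with FA+TPA, 678 and 756 CPM with TPA and 331 to 406 CPM with vehicle. Of 18 NF-kB subunits and feedback genes, 3 rose and 3 fell with FA+TPA, against 8 up and 1 down with TPA. The FA+TPA counts were near the shares over all genes tested, 17.4% higher and 14.2% lower. The FA+TPA split was 1 up and 7 down with library size only, 2 and 1 without the knockout and 1 and 0 without the wild-type FA+TPA library. Bcl3, a nuclear NF-kB cofactor, was at 15.8 and 12.7 CPM with FA+TPA, 34.5 and 38.6 CPM with TPA and 2.16 to 4.52 CPM with vehicle. Icam1 and Cd40, adhesion and costimulatory genes, did not pass against vehicle (0.20 and 0.05).

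Of 15 AP-1 and early response genes, 9 rose with FA+TPA and none fell, and this count was 4 without the knockout and 7 without the wild-type FA+TPA library. The AP-1 subunit Fosl1 was at 15.1 and 14 CPM with FA+TPA, 6.87 and 9.80 CPM with TPA and 3.00, 3.63, 3.96 and 3.21 CPM with vehicle. It rose by 2.08 ± 0.17 and was called higher than with TPA (0.82 ± 0.20, edgeR adjusted p = 0.0232). With the knockout or the wild-type FA+TPA library left out, it was no longer called against both vehicle and TPA. Fos itself did not pass (0.01), and its vehicle libraries ranged from 7.80 to 72.9 CPM. Of 15 MAP kinase phosphatases and Sprouty genes, 5 rose and 2 fell, a balance that turned to 4 up and 6 down with library size only and was 4 and 1 without the knockout and 4 and 1 without the wild-type FA+TPA library. Dusp6, Dusp14 and Dusp5, which remove phosphate from MAP kinases, rose by 2.14 ± 0.17, 1.67 ± 0.11 and 1.5 ± 0.12. Among 19 eicosanoid genes, 7 rose and 4 fell, beside 17.4% higher and 14.2% lower over all genes tested. The cytosolic phospholipase Pla2g4e was at 127 and 88.9 CPM with FA+TPA, 205 and 222 CPM with TPA and 2.09 to 13.2 CPM with vehicle. In the redox-responsive NRF2 list 9 of 17 rose and 1 fell, with 4 rises without the wild-type FA+TPA library, and the glutathione transferase Gsta4 rose by 4.13 ± 0.22, against 5.81 ± 0.22 with TPA. Hypoxia-inducible genes rose in 9 of 15 cases with a median of 0.51. With TPA 13 rose and 1 fell, with a median of 1.03, and 6 were lower with FA+TPA than with TPA. Egln3 and Vegfa, both among these 6, rose by 1.49 ± 0.09 and 1.39 ± 0.15 with FA+TPA and by 1.94 ± 0.09 and 2.51 ± 0.15 with TPA. Car9 rose by 2.04 ± 0.19 and did not pass the direct test. Cholesterol synthesis genes rose in 12 of 24 cases, which became 5 without the knockout and 4 without the wild-type FA+TPA library.

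Outside the lists, Tcf23, a basic helix-loop-helix factor, had the highest fitted rise among genes open to naming (ENSMUSG00000006642, chromosome 5, 30968662 to 30977018). Such genes had a log2 CPM averaging 2 or more, the same direction in both genotypes and a symbol that the naming rule admits. Tcf23 was at 14.7 CPM in knockout and 17.2 CPM in wild-type FA+TPA libraries, 5.97 and 11.8 CPM with TPA, and 0.0469, 0.227, 0.0565 and 0 CPM with vehicle. Of the vehicle libraries 1 exceeded the limit of 3 counts, and the fitted rise was 7.41 ± 0.41 (edgeR adjusted p = 1.22e-06). Cd300lf, an inhibitory receptor of myeloid cells, held 129 counts with FA+TPA and 3 with vehicle, a ratio of 107 with an exact 95% counting interval from 35.8 to 526, and was lower with FA+TPA than with TPA.

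TPA falls that remained included antiviral, channel and decoy receptor genes. Ifitm6 (ENSMUSG00000059108; chromosome 7, 141015699 to 141017924), of the interferon-induced transmembrane family, was at 3.08 CPM in knockout and 2.86 CPM in wild-type FA+TPA libraries, against 46.1, 48.1, 40.2 and 80.2 CPM with vehicle. TPA gave 4.67 and 3.21 CPM. Its change was -4.16 ± 0.33 (edgeR adjusted p = 1.12e-05), and the direct test did not call a difference from TPA. Trpm3, a cation channel, changed by -3.62 ± 0.41, the phosphodiesterase Pde1c by -3.10 ± 0.30 and the helicase Ddx60 by -3.27 ± 0.40. Tnfrsf11b, the decoy receptor osteoprotegerin, was at 6.16 and 3.56 CPM with FA+TPA, 7.68 and 4.81 CPM with TPA and 32.0 to 55.7 CPM with vehicle, a change of -3.08 ± 0.30. Serpina3b changed by -3.27 ± 0.54, and was at 318 and 309 CPM in knockout and 73.4 and 138 CPM in wild-type vehicle libraries. Wfdc21, of the whey acidic protein family, changed by -3.59 ± 0.17 and was higher with FA+TPA than with TPA (0.82 ± 0.22).

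Circadian clock genes were mostly lower. Of 16, 11 fell with FA+TPA and 1 rose, with a median of -0.84, and 12 fell with TPA. Per3, a repressor of the clock, was at 66.6 CPM in knockout and 61.3 CPM in wild-type FA+TPA libraries, 60.1 and 74.7 CPM with TPA and 216, 196, 249 and 200 CPM with vehicle. Its change was -1.75 ± 0.13, and that of Per2 was -1.39 ± 0.11. Arntl, the activating partner of Clock, was the member that rose, a count that was 0 without the wild-type FA+TPA library. It was at 48.5 and 59.2 CPM with FA+TPA, 31.6 and 31.1 CPM with TPA and 30.6 to 38.0 CPM with vehicle. The labels give no hour of the day for the samples.

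Of 14 hair follicle stem cell genes, 5 fell and 3 rose, which became 2 and 0 without the wild-type and 3 and 1 without the knockout FA+TPA library. Krt15, a keratin of basal and bulge cells, was at 810 and 851 CPM with FA+TPA, 380 and 172 CPM with TPA and 1977 to 2273 CPM with vehicle, so that it fell by 1.35 with FA+TPA and by 3.00 with TPA. Lgr6, a receptor of follicle stem cells, changed by -1.92 ± 0.12. Of 16 basal and hemidesmosome genes, 8 rose and 5 fell, a balance that turned to 4 up and 7 down with library size only and was 5 and 4 without the knockout and 6 and 3 without the wild-type FA+TPA library. The integrin Itga3 rose by 1.25 ± 0.10 and the hyaluronan receptor Cd44 by 0.77 ± 0.09. FoxO and atrophy genes, a catabolic set, fell in 10 of 19 cases and rose in 2, against 13 down and 2 up with TPA, and 10 were higher with FA+TPA than with TPA. Fbxo32, a ubiquitin ligase, was at 57.1 and 48.4 CPM with FA+TPA, 14.8 and 15.3 CPM with TPA and 113 to 151 CPM with vehicle. The count of 10 falls was 6 without the knockout and 5 without the wild-type FA+TPA library. Among 19 regulators of mTORC1, 4 rose and 6 fell, beside 17.4% higher and 14.2% lower over all genes tested. The 4 and 6 became 2 and 2 without the knockout and also without the wild-type FA+TPA library. The sestrin Sesn1 changed by -0.72 ± 0.12 with FA+TPA and -1.42 ± 0.12 with TPA, and the translation repressor Eif4ebp1 rose by 0.85 ± 0.13.

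**Figure D4:**
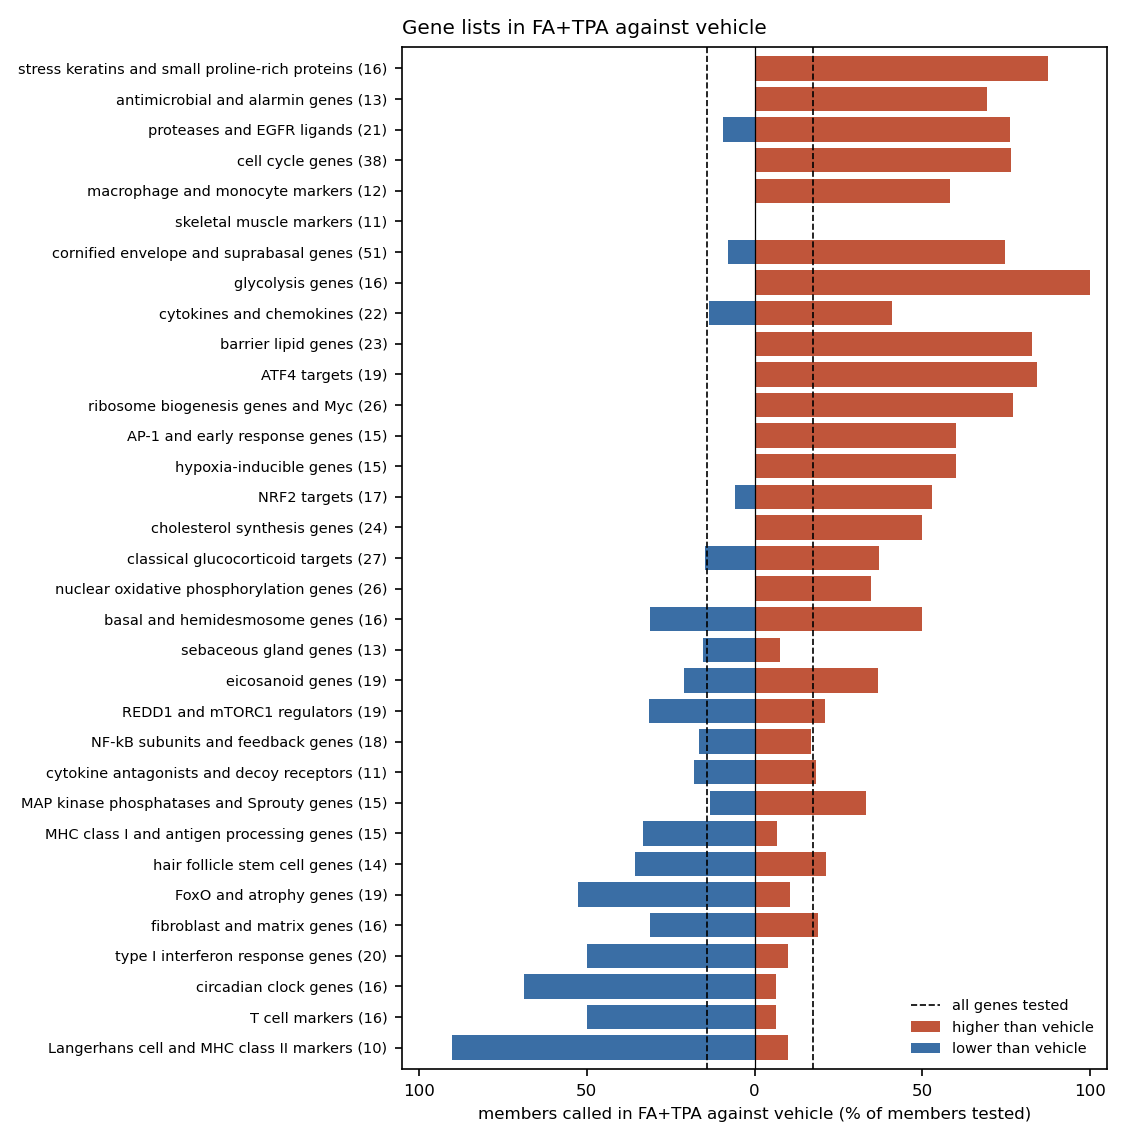
Share of tested members (horizontal axis, %, with the number tested in brackets) called higher (right) or lower (left) in FA+TPA against vehicle, for lists with at least 10 tested members, ordered by their median change. Dashed lines mark the 17.4% of all genes called higher and 14.2% called lower; with library size only, falls outnumber rises in the basal, MAP kinase phosphatase and NF-kB lists.

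Immune cell transcripts moved in both directions, and in bulk RNA fewer cells of a type and less RNA per cell cannot be told apart. Of 10 Langerhans cell and MHC class II genes, 9 fell and 1, Epcam, rose with FA+TPA (no rise without the knockout FA+TPA library), with a median of -1.21, and 8 fell with TPA, with a median of -0.81. Langerin, Cd207, was at 13.2 CPM in knockout and 11.1 CPM in wild-type FA+TPA libraries, 12.5 and 11.9 CPM with TPA and 36.3, 30.6, 31.0 and 35.5 CPM with vehicle, a change of -1.46 ± 0.13. Ciita, the activator of MHC class II genes, changed by -1.30 ± 0.11 and was also lower than with TPA (-0.60 ± 0.12). The list summed to 665 and 514 CPM with FA+TPA, 773 and 723 CPM with TPA and 988 to 1128 CPM with vehicle. Of 16 T cell genes, 8 fell and 1, Thy1, rose, and Cd3e and the gamma-delta receptor gene Trdc changed by -2.15 ± 0.17 and -2.63 ± 0.24. Of 12 macrophage and monocyte genes, 7 rose. The complement gene C1qa was at 13.8 and 12.8 CPM with FA+TPA, 6.42 and 5.05 CPM with TPA and 1.70 to 2.32 CPM with vehicle, a rise of 2.67 ± 0.16 and a difference from TPA of 1.22 ± 0.18. Mrc1, the mannose receptor, was at 21.5 and 15.1 CPM with FA+TPA, 186 and 42.4 CPM with TPA and 1.70 to 3.88 CPM with vehicle. Of 16 fibroblast and matrix genes, 5 fell and 3 rose, which became 5 and 1 without the knockout and 1 and 1 without the wild-type FA+TPA library, and Col3a1 changed by -1.53 ± 0.20. Endothelial genes rose in 5 of 9 cases and fell in 1, and 1 rise was called without the knockout and 1 without the wild-type FA+TPA library, with Flt1 at 1.63 ± 0.25.

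Skeletal muscle transcripts overlapped between FA+TPA and vehicle. The 11 muscle genes summed to 165 CPM in the knockout and 198 CPM in the wild-type FA+TPA library, 52.6 and 37.2 CPM with TPA, and 260, 103, 33.8 and 10.9 CPM with vehicle. None of the 11 was called in FA+TPA against vehicle, with Myh4 at 1.89 ± 0.68 (edgeR adjusted p = 0.0576). Without the knockout FA+TPA library 6 of them were called higher. Adipocyte genes rose in 2 of 7 cases, Fabp4 and Cfd, beside 17.4% of all genes tested. Cfd was not called without the knockout FA+TPA library. No melanocyte gene of 6 passed.

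Genes that moved with the combination were defined as called in the same direction against vehicle and against TPA. There were 440 (2.29% of genes tested), 329 higher and 111 lower. For 259 of them TPA against vehicle was not called (1.35%), for 85 TPA was called in the opposite direction (0.442%), and for 96 it was called in the same direction. Besides these, 713 genes were called in FA+TPA and not in TPA against vehicle without passing the direct test, so a difference between FA+TPA and TPA was not shown for them. Single libraries decided many of the 440, since 218 genes met the definition without the knockout and 77 without the wild-type FA+TPA library, of which 172 and 73 were among the 440. It was met by 197 genes without the knockout and 258 without the wild-type TPA library. Of 41 named genes in this class, 13 met the definition under all 17 alternatives.

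Rises with the combination that were not called with TPA included a keratin, matrix enzymes and metabolic genes. Krt1 (ENSMUSG00000046834; chromosome 15, 101845426 to 101850794, minus strand), the suprabasal partner of Krt10, was at 6392 CPM in knockout and 7675 CPM in wild-type FA+TPA libraries. It was at 2460 and 4100 CPM with TPA and at 2298, 2762, 2811 and 2588 CPM with vehicle. Both FA+TPA libraries lay above all others, with a rise of 1.42 ± 0.14 over vehicle (edgeR adjusted p = 4.06e-05) and 1.12 ± 0.17 over TPA. Krt1 met the definition under all 17 alternatives. Of the cornified envelope list 19 of 51 members and of the barrier lipid list 7 of 23 were in the combination class, against 2.29% of all genes tested, and 11 of the 14 Lce1 genes were among the 19. Membership was less firm for others than for Krt1. Lce1h, Lce1e, Lipk and Pnpla1 each lost the definition without the wild-type FA+TPA library. Lipk met it under 6 and Pnpla1 under 11 of the 17 alternatives.

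Lox (ENSMUSG00000024529; chromosome 18, 52516067 to 52529867, minus strand), the lysyl oxidase that cross-links collagen, was at 9 and 17.2 CPM with FA+TPA, 2.15 and 1.05 CPM with TPA and 0.516, 1.95, 1.02 and 1.14 CPM with vehicle. It rose by 3.47 ± 0.40 and lost the definition without the wild-type FA+TPA library. The procollagen protease Adamts2, the protease Htra3 and the lipocalin Apod rose by 1.22 ± 0.27, 1.40 ± 0.26 and 1.73 ± 0.38. Each lost the definition without the knockout FA+TPA library and without the wild-type TPA library. Adamts2 and Apod also lost it without the wild-type FA+TPA library, and Htra3 without the knockout TPA library. Col3a1 and Col1a1 themselves were lower than vehicle (-1.53 ± 0.20 and -1.74 ± 0.31), and the call of Col1a1 ended without the wild-type FA+TPA library.

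Pdk4, the kinase that inhibits pyruvate dehydrogenase and a known glucocorticoid target, was at 20.2 and 21.9 CPM with FA+TPA, 4.04 and 5.18 CPM with TPA and 9.19, 3.95, 3.73 and 3.52 CPM with vehicle. It rose by 2.07 ± 0.31 over vehicle and 2.21 ± 0.38 over TPA, and lost the definition without the wild-type FA+TPA or the knockout TPA library. Trim63, a ubiquitin ligase best known from muscle wasting, was at 4.29 and 4.20 CPM with FA+TPA, 0.269 and 0.0616 CPM with TPA and 0.703, 0.0908, 0.226 and 0.0517 CPM with vehicle (4.00 ± 0.52). The vehicle library with the highest sum of muscle genes, 260 CPM, had 0.703 CPM of Trim63. The part of muscle RNA in this rise was not tested. Rapgef4, an exchange factor for Rap proteins, rose by 1.37 ± 0.15 and met the definition under all 17 alternatives, as did Trim63.

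Of 27 classical glucocorticoid targets, 10 rose and 4 fell, with a median of 0.26, and the counts were 8 and 8 with library size only, 7 and 1 without the knockout and 9 and 2 without the wild-type FA+TPA library. Over all genes tested, 17.4% were higher and 14.2% lower with FA+TPA, and the 4 falls were near that share. With TPA 8 rose and 15 fell, with a median of -0.54, beside 23.2% higher and 22.8% lower over all genes. Of the targets, 11 were higher and 1 lower with FA+TPA than with TPA, beside 5.71% and 4.31% over all genes. The definition of the combination class was met by 3, Fkbp5, Pdk4 and Angptl4. Fkbp5, the receptor's co-chaperone, was at 233 and 241 CPM with FA+TPA, 66.9 and 61.0 CPM with TPA and 80.5 to 147 CPM with vehicle. Angptl4, a lipoprotein lipase inhibitor, rose by 2.44 ± 0.27. Zbtb16 and Tsc22d3, induced transcription regulators, were not called against vehicle, with Zbtb16 at 141 and 173 CPM with FA+TPA, 32.7 and 26.0 CPM with TPA and 141 to 252 CPM with vehicle. Mt1 and Mt2, the metallothioneins, rose by 1.47 ± 0.12 and 1.77 ± 0.11, with TPA at 1.11 and 1.72.

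In 60 genes TPA fell below vehicle while FA+TPA rose above it. Il22ra2 (ENSMUSG00000039760; chromosome 10, 19621998 to 19634681), the soluble decoy receptor of interleukin-22, was at 93.5 and 98.6 CPM with FA+TPA, 5.25 and 4.62 CPM with TPA and 36.0, 44.5, 39.2 and 32.0 CPM with vehicle. The 3 groups did not overlap, with 1.35 ± 0.11 for FA+TPA (edgeR adjusted p = 1.62e-05) and -2.94 ± 0.15 for TPA. Galnt15, an enzyme of O-glycosylation, was at 17.2 and 15.7 CPM with FA+TPA, 1.03 and 0.925 CPM with TPA and 2.44 to 4.97 CPM with vehicle. Galnt15 rose by 2.25 ± 0.21, and both it and Il22ra2 met the definition under all 17 alternatives.

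**Figure D5:**
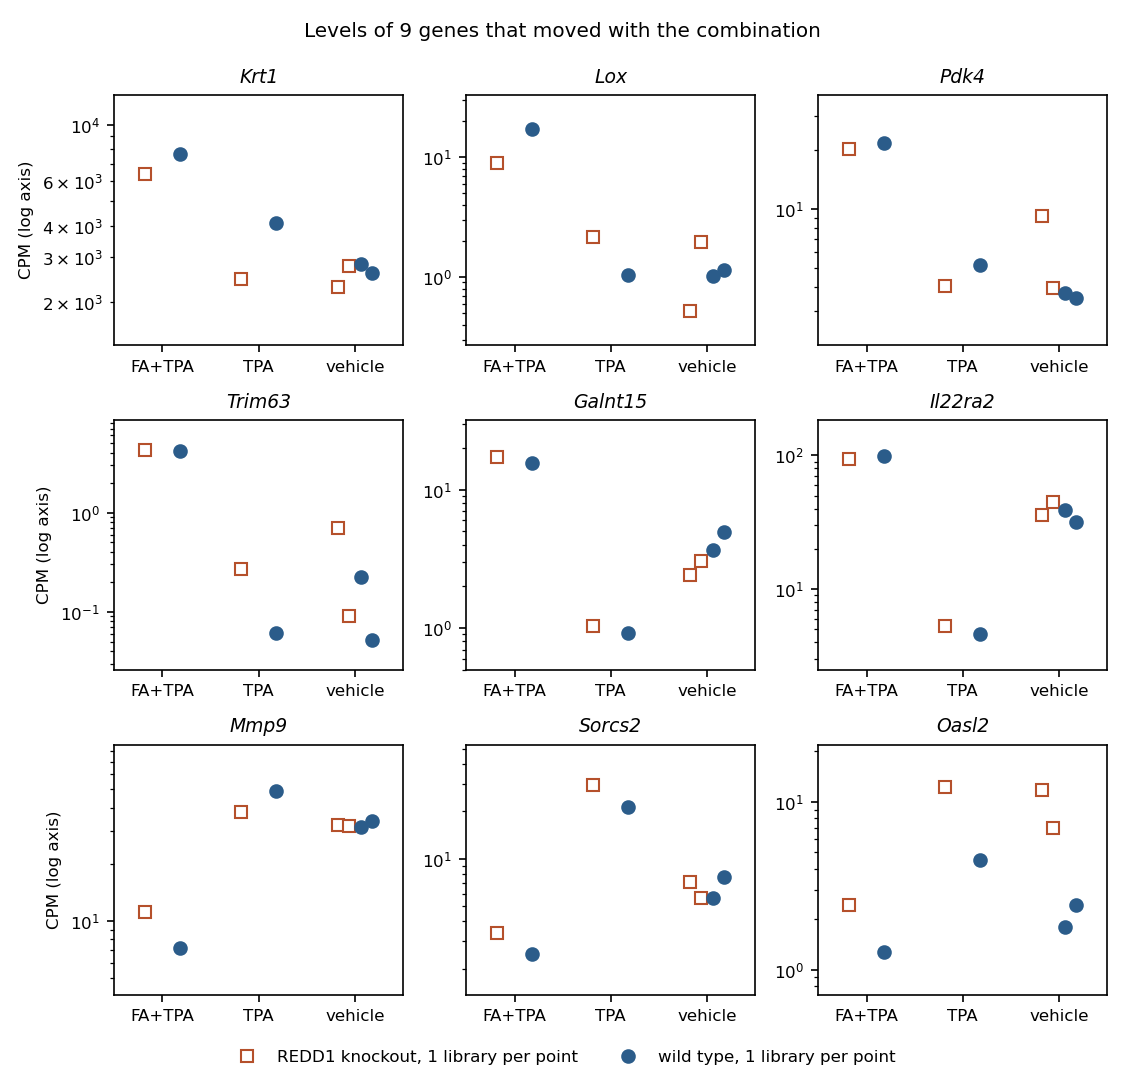
Levels in CPM (vertical axes, log scale) of 9 genes that moved with the combination, 1 point per library, with FA+TPA left, TPA in the middle and vehicle right. In the top and middle rows both FA+TPA libraries lie above all other libraries, and in Mmp9 and Sorcs2 below all of them, while for Oasl2 the FA+TPA libraries overlap the wild-type vehicle libraries.

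Among the falls with the combination, Mmp9 (ENSMUSG00000017737; chromosome 2, 164940780 to 164955850), a gelatinase, was at 11.2 CPM in knockout and 7.19 CPM in wild-type FA+TPA libraries. It was at 37.9 and 48.8 CPM with TPA and 32.2, 32.1, 31.6 and 34.0 CPM with vehicle, so that it changed by -1.82 ± 0.18 with FA+TPA and 0.41 ± 0.15 with TPA. Sorcs2, of the sortilin receptor family, was at 3.38 and 2.48 CPM with FA+TPA, 29.2 and 21.4 CPM with TPA and 5.63 to 7.71 CPM with vehicle, and lost the definition without the wild-type FA+TPA library. Ltbp2, a matrix protein that binds fibrillin, changed by -1.25 ± 0.18. The actin-associated Limch1 changed by -1.74 ± 0.18, the secreted Scube2 by -1.24 ± 0.16, the monoamine oxidase Maob by -1.10 ± 0.19 and the ubiquitin ligase Rnf122 by -1.07 ± 0.19. None of these 4 was called with TPA, and with Mmp9 and Ltbp2 they met the definition under all 17 alternatives.

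Of 20 tested interferon response genes, 10 fell with FA+TPA and 2 rose, with a median of -0.60. With TPA 5 rose and 3 fell, with a median of 0.12, and 5 genes, Ifit1, Oas2, Oasl2, Rsad2 and Stat2, were in the combination class. Oasl2 was at 2.42 CPM in knockout and 1.27 CPM in wild-type FA+TPA libraries, 12.2 and 4.50 CPM with TPA, and 11.8 and 6.99 CPM in knockout and 1.81 and 2.43 CPM in wild-type vehicle libraries. The knockout vehicle libraries lay above the wild-type ones, and the definition was lost without the knockout FA+TPA library. Usp18, an interferon feedback gene, was at 3.68 and 2.86 CPM with FA+TPA, 5.43 and 4.07 CPM with TPA and 6.78 to 15.4 CPM with vehicle. Irf7 rose by 1.24 ± 0.18. The count of 10 falls was 3 without the knockout and 7 without the wild-type FA+TPA library. MHC class I and antigen processing genes fell in 5 of 15 cases and rose in 1, which became 3 and 0 without the knockout and 0 and 0 without the wild-type FA+TPA library.

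The response to FA+TPA was compared between genotypes with 1 mean per group, where the spread comes only from the vehicle pairs and the single FA+TPA libraries are assumed to vary like them. By edgeR, 2 genes of 19251 were called (0.0104%), Lgals4 and Myh1, and 597 (3.1%) had an unadjusted p below 0.05. DESeq2 called 5. A p that misses the threshold does not show that the genotypes responded alike.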

How the data were processed

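RNA-seq gene counts of 8 libraries were used as deposited. Per the submitters' processing notes, the authors made these counts with Trim Galore, STAR, HTSeq and mm10; tool versions, the annotation release and the strand setting are unstated there, so overlapping and antisense genes are uncertain. Of 54232 gene IDs, 54165 matched GENCODE M21. The 13 mitochondrial protein genes were listed at 0. Libraries were grouped by title. Genes passing edgeR's filter (minimum count 10, 19251 genes) were scaled by TMM and tested with edgeR 4.0.16 (R 4.3.3) by the quasi-likelihood F test with Benjamini-Hochberg adjustment, threshold 0.05, on genotype plus treatment over all 8 libraries, which leaves 4 residual degrees of freedom, or with 1 mean per group (2) for the genotype difference. Each standard error is |log2 fold change|/sqrt(F). The code was tested on simulated data. Alternatives were RLE or library-size scaling, other filters, DESeq2 1.42.0, limma-voom (limma 3.58.1), 1 mean per group, 6 libraries, a 2-fold limit, no Gm26917, and each library left out. Vehicle replicates differed beyond counting noise (chi-square per degree of freedom 12.37 in knockout and 27.57 in wild type). Named genes are Ddit4, the largest changes in FA+TPA against vehicle among genes averaging a log2 CPM of 2 or more, the largest remaining and combination effects, up to 3 members per list with the smallest p, and the genes of the genotype difference. For the largest changes and effects, the direction had to be the same in both genotypes. Symbols starting with Gm and digits, ending in Rik or made only of an identifier were left out there. Other genes named were chosen after their values were seen. A few genes that the rule names are not reported here. The comparison, its classes and the gene lists were chosen with earlier results of these data known.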

Additional observations from a re-analysis of the deposited data

Results flagged for a closer look

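For 2 genes the response to FA+TPA differed between genotypes by the interaction term with 1 mean per group. Lgals4, which encodes an epithelial galectin, was at 11.4 CPM in the knockout and 79.5 CPM in the wild-type FA+TPA library, against 11.3 and 9.81 CPM in knockout and 10.9 and 10.1 CPM in wild-type vehicle libraries. The knockout response minus the wild-type response was -2.812 on the log2 scale (edgeR adjusted p = 0.0124). With TPA the levels were 7.86 CPM in knockout and 46.6 CPM in wild type. Myh1, a skeletal muscle myosin, was at 8.82 CPM in the knockout and 40.6 CPM in the wild-type FA+TPA library, against 25.3 and 22.6 CPM in knockout and 2.43 and 0.517 CPM in wild-type vehicle libraries, a difference in response of -6.249 (edgeR adjusted p = 0.0124). Beside it, the 11 skeletal muscle genes summed to 165 CPM in the knockout and 198 CPM in the wild-type FA+TPA library, against 260 and 103 CPM in knockout and 33.8 and 10.9 CPM in wild-type vehicle libraries, and their part in the result was not tested. Each genotype had 1 FA+TPA library.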

How the results depend on the processing

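The named genes called in FA+TPA against vehicle kept their sign under the alternatives run, while the balance of calls turned in places. With library size only, FA+TPA against vehicle had 1953 rises and 4982 falls, and FA+TPA against TPA had 483 rises and 504 falls without the knockout TPA library. Myh1, not called (1.52), ranged from -0.98 to 3.47 as libraries were left out. With a 2-fold limit the calls were 1989 for FA+TPA against vehicle, 3551 for TPA against vehicle, 836 for FA+TPA against TPA, 1495 for TPA effects that remained and 112 for the combination, 87 of them not called with TPA and 13 opposite to TPA. Without a low-count filter the combination held 669 genes and its opposite class 130. The genotype difference had 5 genes with DESeq2 and 1 with a minimum count of 50. Leaving out 1 library at a time gave 2652 to 6051 calls for FA+TPA against vehicle, 6049 to 8810 for TPA against vehicle and 571 to 2367 for FA+TPA against TPA. It gave 2408 to 4972 remaining effects, 77 to 548 combination genes, 42 to 323 of them not called with TPA and 26 to 98 opposite to TPA, and 45 to 158 genes for the genotype difference. For the genotype difference only vehicle libraries were left out in turn, and the single FA+TPA libraries could not be. The lowest counts for FA+TPA came without the wild-type FA+TPA library, and a treatment left with 1 library was assumed to vary like the others. With library size only, 26.9% of 5687 remaining effects and 61.1% of 388 combination genes were rises, against 54.1% and 74.8% with TMM. The rises then numbered 5 for cholesterol synthesis and 5 for oxidative phosphorylation, and the falls 12 for MHC class I genes. No paired analysis was possible because the FA+TPA libraries carry no replicate number. Depth limits genes at or under 3 counts in a library, which is 0.1345 to 0.1906 CPM.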
